A study of Homo sapiens with 6 samples.

Results

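Long intergenic non-coding RNAs, named LINC followed by a number in the human gene nomenclature, are transcripts of RNA polymerase II that arise between protein-coding genes and are mostly spliced, capped and polyadenylated. Most are low in abundance and restricted to few cell types, and some lie beside the coding genes that they are co-expressed with. MALAT1 and NEAT1 are the abundant nuclear ones: MALAT1 gathers at nuclear speckles, where splicing factors are stored, and NEAT1 is the scaffold of paraspeckles. MALAT1 and the long isoform of NEAT1 end in a triple helix made after cleavage by RNase P instead of a poly-A tail, so libraries selected on poly-A do not capture them in full.

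The genes described here are the LINC symbols with a mean of at least 0.5 CPM over all libraries, where CPM is the count scaled to a library total of 1000000, plus 4 long non-coding RNAs taken by name, UCA1, MIR137HG, MALAT1 and NEAT1. Of 1067 counted LINC symbols, 182 reached that level, which gives 186 genes of 25330 counted. The values that chose them are their mean levels over both groups. UCA1 and MIR137HG were named with their difference between the groups already known, so their values are given as a description with no test. Just inside the threshold stood LINC02478, LINC02544 and LINC01273, at 0.502, 0.503 and 0.505 CPM, and just outside LINC02873, LINC01842 and LINC01561, at 0.479, 0.477 and 0.466 CPM. All 186 genes passed the count filter of the test. A mean over 6 libraries can be reached through 1 group alone, and 13 LINC genes were at 0.5 CPM or more only in the knockout mean and 10 only in the control mean.

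Counts came from the breast cancer line MDA-MB-231, a triple-negative line of mesenchymal type, in 2 groups of 3 libraries: RNASEH2A KO, named RN1 in the titles, and CTRV2 control, the reference genotype, both grown with 10% fetal bovine serum and given as 1 batch. What CTRV2 carries is not stated further. RNASEH2A encodes the catalytic subunit of RNase H2, which cuts out ribonucleotides built into DNA and digests the RNA strand of hybrids. Each library is a different passage, no treatment was given, and whether the knockout cells are 1 clone or a pool is not stated. The p-values therefore reflect variation among passages of these cells. The libraries were made strand-specific after poly-A selection, per the labels' protocols.

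Library totals ran from 27928670 to 31596286 counts in knockout and from 25419877 to 29635083 in control cells. Where a library held 0 reads of a gene, counting error alone leaves room for 3 counts, equal to 0.0949 to 0.118 CPM. Among 2999 genes with 1 to 49 counts in every library 67.8% of the counts were even, and among the 186 genes 59.2%. Whether both reads of a pair were counted was not tested. If they were, 3 fragments would be 6 counts, or 0.190 to 0.236 CPM. RNASEH2A held 7, 8 and 16 counts in knockout libraries and 10, 6 and 15 in control libraries (exact two-sided permutation p = 0.8, where 0.1 is the smallest possible), which leaves the genotype labels unchecked by this gene. The other subunits, RNASEH2B (-0.16, edgeR adjusted p = 0.334) and RNASEH2C (0.14, adjusted p = 0.232), did not pass. All 8 markers of mesenchymal-type MDA-MB-231 cells were above 1 CPM, and of the 7 counted luminal markers GATA3, ERBB2, CDH1 and EPCAM were above 1 CPM while ESR1 and FOXA1 were under 0.1 CPM, with sums of 159.9 to 179 CPM in knockout and 160.2 to 178 CPM in control libraries. Of the 4 counted leukocyte markers CD14 and LAPTM5 were above 1 CPM. The 4 summed to 167 to 191 CPM in knockout and 63.8 to 67.4 CPM in control libraries, with PTPRC and CD53 under 0.1 CPM, and their part in the results below was not tested. The replicate 1 library of both groups stood apart for some of the genes, as described further on, and the values without it are given there.

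Levels differed widely among the LINC genes. Their median was 1.90 CPM, 51 were under 1 CPM, 92 between 1 and 5, 30 between 5 and 20, and 9 at 20 CPM or more. LINC03061 on chromosome 13 was by far the most counted, with a mean of 215 CPM, and held 23.4, 24.4 and 24.7% of the summed level of all LINC genes described here in the 3 knockout libraries, against 18.4, 17.8 and 18.4% in control libraries. The next were LINC02693, which GENCODE 29 still types as protein-coding (45.3 CPM), LINC00205 (38.5 CPM), LINC01224 (32.3 CPM), LINC00472 (32.3 CPM) and LINC02009 (31.4 CPM). Per kilobase of exonic length LINC03061 also came first, at 42.3 CPM per kb, followed by LINC02595, a gene of only 375 exonic bases, at 16.8, LINC02009 at 10.6 and LINC02984 at 10.2 CPM per kb. On the same per-length scale MALAT1 was at 4.41, UCA1 at 4.24 and NEAT1 at 1.88 CPM per kb. The LINC genes together summed to 1118, 1045 and 1049 CPM in knockout libraries and to 975, 917 and 944 CPM in control libraries, and these groups did not overlap. Without LINC03061 the sums were 857, 790.3 and 789.8 CPM in knockout libraries and 795, 754 and 770.2 CPM in control libraries, and these overlapped. Summed levels and all levels below are CPM scaled by TMM, edgeR's correction for library composition.

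Knockout cells had 18 of the 182 LINC genes higher and 6 lower at an edgeR adjusted p under 0.05, and 158 were not called. That is 9.89% higher, where 5.88% of all 14199 tested genes were called higher, and 3.30% lower, where 6.22% of all tested genes were. In either direction 13.2% were called, against 12.1% of all tested genes. With UCA1 and MIR137HG, which were named for their difference, 19 higher and 7 lower genes passed the same threshold. Among the 159 LINC genes at 0.5 CPM or more in both group means 15 were higher and 2 lower, or 10.7% in all. The other 7 called LINC genes reached the level of the selection through 1 group only, the one in which they are high, so their difference was in part fixed by the selection. They are LINC00839, LINC01537 and LINC01311 among the rises and LINC00261, LINC02970, LINC00707 and LINC02981 among the falls, and their values are given below as a description. In these bulk libraries, fewer cells with a transcript and less of it per cell cannot be told apart. The median log2 fold change, knockout over control, was 0.11 over the 182 LINC genes, 0.10 over the 159 and 0.0035 over all tested genes. It was 0.07 over the 3706 tested genes under 5 CPM, where 143 of the 182 LINC genes lie. Changes of 2-fold or more were found in 25 of the 182 LINC genes (13.7%), and 15 of these 25 had reached the level through 1 group only. Among the 159 genes it was 10 (6.29%), where 3.71% of all tested genes reached that size. That share differed with level: it was 11.4% of the tested genes under 5 CPM and 1.0% of those at 5 CPM or more. The 159 genes had to pass the level in both groups and the tested genes under 5 CPM did not, so 6.29% and 11.4% are not alike. Without that requirement 24 of the 143 LINC genes under 5 CPM (16.8%) reached that size, those that entered through 1 group included. Whether LINC genes differ from other genes of their level in this was not tested. Of the 143 LINC genes under 5 CPM, a split chosen after the data were seen, 14 were higher (9.79%, against 3.89% of the 3706 tested genes under 5 CPM) and 6 lower (4.20%, against 3.89%), or 14% in either direction, against 7.77%. These counts include the 7 genes that entered through 1 group. The 3706 genes also include some under 0.5 CPM, a level that the LINC genes had to reach. Among these are 45 LINC symbols, of which 4.44% were called. Of the 39 LINC genes at 5 CPM or more 4 were higher and 0 lower (10.3%; 3 lower at an unadjusted p under 0.05), against 13.6% of the 10493 tested genes of that level. DESeq2 called 17 of the 182 LINC genes higher and 8 lower, and limma-voom 18 and 8.

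**Figure D1:**
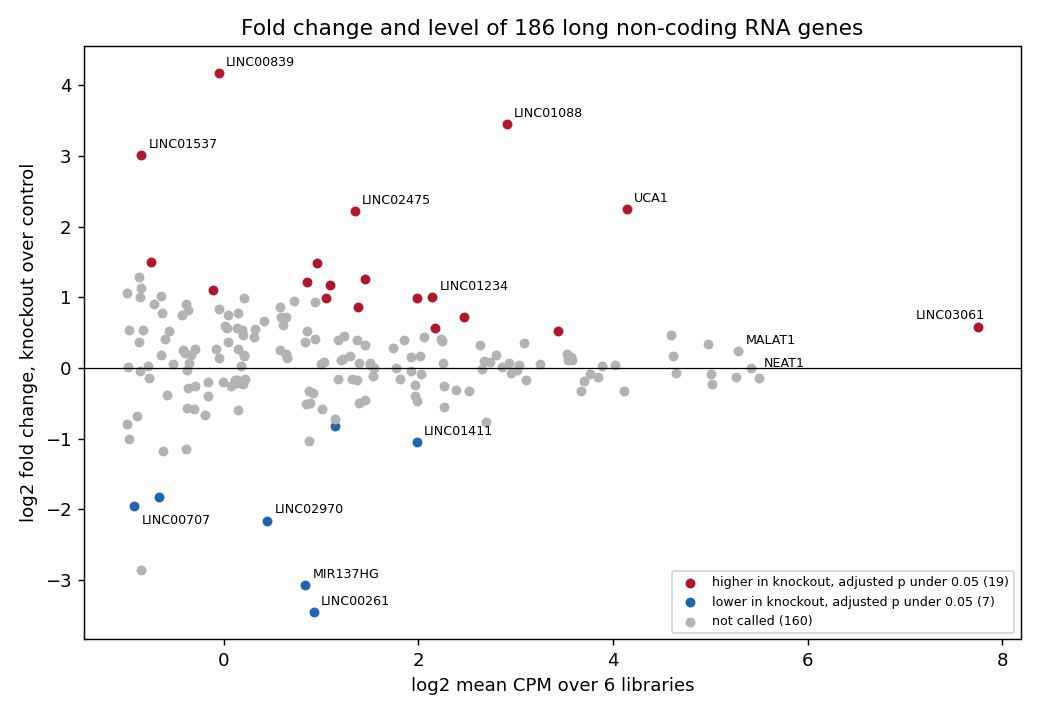
Each point is 1 of the 186 genes: the horizontal axis is the log2 of the mean CPM over 6 libraries, the vertical axis the log2 fold change of knockout over control from edgeR, red and blue mark genes higher and lower in knockout cells at an adjusted p under 0.05. LINC03061 sits alone at the right with a fold change of 0.59, and the largest changes in either direction belong to genes of low level, with LINC01088 and UCA1 the exceptions above 5 CPM.

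These counts moved with single libraries, as did those over all tested genes, which ran from 261 to 1629 higher and from 263 to 1801 lower. The number of LINC genes higher was 7 without control replicate 2, 8 without control replicate 3 and 6 without knockout replicate 3, and it was 24 without knockout replicate 1. The number lower was 2 without control replicate 2, control replicate 3 or knockout replicate 3, and 16 without knockout replicate 1. With both replicate 1 libraries left out, an alternative chosen after the data were seen, 25 LINC genes were higher and 18 lower. Over all tested genes that fit called 2045 higher and 2267 lower, against 835 and 883 with all libraries. Among the 159 LINC genes at 0.5 CPM or more in both group means, between 5 and 20 were higher and between 0 and 10 lower with 1 library left out. Of the 24 called LINC genes 8 were called under each of the 16 other fits that tested them. Of these, LINC01088, LINC03061, LINC02475, LINC01234 and LINC02709 reached 0.5 CPM in both group means, and LINC00839, LINC00261 and LINC02970 in 1 only. The other 16 lost the call in at least 1 fit, and all 24 kept their direction in each fit that tested them.

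LINC01088 had the largest rise among the genes above 5 CPM. It lies on chromosome 4 (78971748 to 79308798, plus strand, GENCODE 29 on GRCh38, as for all gene positions here) and is typed there as an antisense RNA gene. It was at 16.4, 10.6 and 14.1 CPM in knockout libraries and at 1.22, 1.05 and 1.51 CPM in control libraries. Every knockout library was several times above every control library. The log2 fold change was 3.45 ± 0.22 SE (edgeR adjusted p = 9.0e-05). PAQR3, the nearest tested coding gene at a distance of 32310 bases, was not called (0.23, adjusted p = 0.270), and the 10 tested genes on each side of LINC01088 had a median log2 fold change of -0.07.

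LINC00839 on chromosome 10 (42475543 to 42495336, plus strand) had the highest fitted fold change of all 186 genes, rests on few counts in control cells and reached the level of the selection through the knockout mean only. It had 52, 44 and 64 counts in knockout libraries and 0, 2 and 6 in control libraries. In CPM this was 1.62, 1.58 and 2.28 in knockout cells and 0, 0.0702 and 0.238 in control cells. The fitted log2 fold change was 4.18 ± 0.61 SE, and its size depends on how counts near 0 are treated. LINC01537, on chromosome 11 and 2912 bases from the phosphodiesterase gene PDE2A, also entered through the knockout mean only, with 18, 32 and 36 counts in knockout libraries and 6, 4 and 0 in control libraries (log2 fold change 3.01 ± 0.65 SE).

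Sequences of the start regions are shown for the called genes with the largest changes, 2 in each direction, to show the sequence from which they are transcribed. Each window runs from 250 bases before to 50 after the RefSeq start (GRCh38.p14) and is read along the gene's strand. Capitals mark matches, on either strand, to the motifs searched: AP-1 (TGANTCA), TEAD (GGAATG), the CCAAT box (CCAAT), the TATA box (TATAAA), SP (GGGCGG) and the E-box (CACGTG). The windows are chr10:42475241-42475540 plus strand for LINC00839, chr4:78971498-78971797 plus strand for LINC01088, chr20:22578593-22578892 minus strand for LINC00261 and chr1:98049644-98049943 minus strand for MIR137HG.
LINC00839: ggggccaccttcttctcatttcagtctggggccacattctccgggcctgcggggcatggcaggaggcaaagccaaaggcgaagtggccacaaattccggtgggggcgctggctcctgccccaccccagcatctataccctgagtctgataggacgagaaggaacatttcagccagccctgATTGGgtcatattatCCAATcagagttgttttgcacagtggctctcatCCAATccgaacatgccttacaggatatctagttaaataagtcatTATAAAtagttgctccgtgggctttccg
LINC01088: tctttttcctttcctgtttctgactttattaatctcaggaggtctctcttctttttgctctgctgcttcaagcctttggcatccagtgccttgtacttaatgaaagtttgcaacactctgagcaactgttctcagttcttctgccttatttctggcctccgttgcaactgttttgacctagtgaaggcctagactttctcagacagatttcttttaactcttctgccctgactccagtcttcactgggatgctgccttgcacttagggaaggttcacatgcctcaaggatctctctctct
LINC00261: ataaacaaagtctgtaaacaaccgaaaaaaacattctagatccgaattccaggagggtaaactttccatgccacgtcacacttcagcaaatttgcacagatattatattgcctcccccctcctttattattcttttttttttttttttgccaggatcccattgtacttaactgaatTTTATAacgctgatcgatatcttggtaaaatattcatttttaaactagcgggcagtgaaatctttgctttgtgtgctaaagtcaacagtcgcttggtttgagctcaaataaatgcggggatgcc
MIR137HG: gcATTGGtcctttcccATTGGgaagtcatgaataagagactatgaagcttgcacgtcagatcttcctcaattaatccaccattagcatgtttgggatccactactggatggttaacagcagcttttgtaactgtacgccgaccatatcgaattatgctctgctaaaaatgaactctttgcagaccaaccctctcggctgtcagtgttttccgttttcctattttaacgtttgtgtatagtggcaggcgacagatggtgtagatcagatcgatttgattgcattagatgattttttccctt

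The LINC00839 window held 3 CCAAT matches and 1 TATA match, the LINC00261 window 1 TATA match and the MIR137HG window 2 CCAAT matches, while the LINC01088 window held 0 matches to these letters and 1 CG dinucleotide. RefSeq start windows were found for 136 of the 186 genes. The CCAAT box was in 45.6% of them and in 35.7% of all 27305 windows, AP-1 in 14% and 7.76%, SP in 46.3% and 44.6%, TATA in 10.3% and 12%, TEAD in 11% and 14%, and the E-box in 4.41% and 7.43%. Windows of these genes had a median of 11 CG dinucleotides, against 14 over all windows. For the 12 genes called higher that had a window the median was 7.5, and for the 6 called lower 8.5.

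The largest gain in CPM was in LINC03061 (chromosome 13, 109269634 to 109278512, plus strand). It stood at 261, 254 and 259 CPM in knockout libraries and at 180, 163 and 174 CPM in control libraries. The 3 values of each group lay close together and the groups did not overlap. Its log2 fold change was 0.59 ± 0.06 SE (adjusted p = 0.00069). MYO16, a myosin gene 61627 bases away and the nearest tested coding gene, did not pass (0.57, adjusted p = 0.346). It rests on few counts, 16, 23 and 19 in knockout and 11, 14 and 12 in control libraries, and these did not overlap. LINC02475 on chromosome 4, more than 100 kb from any tested coding gene, was at 3.61, 4.60 and 4.35 CPM in knockout libraries and at 0.743, 0.842 and 1.11 CPM in control libraries (2.22 ± 0.24 SE, adjusted p = 0.000737).

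UCA1, first described in urothelial cancer, lies on chromosome 19 (15828206 to 15836326, plus strand). It was at 40.4, 22.2 and 24.6 CPM in knockout libraries and at 6.38, 5.16 and 6.83 CPM in control libraries, a log2 fold change of 2.25 ± 0.23 SE. Knockout replicate 1 was the highest, and without the replicate 1 libraries the log2 fold change was 1.97. Its surroundings differed the other way: the 10 tested genes on each side had a median of -0.29, and TPM4, a tropomyosin gene and its nearest tested coding gene at 230695 bases, was lower in knockout cells (-0.25, adjusted p = 0.0189). With the median of these neighbours subtracted UCA1 was at 2.54. Of its exonic bases 11.8% are shared with LINC01764 on the opposite strand, and whether reads were counted by strand is not stated.

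**Figure D2:**
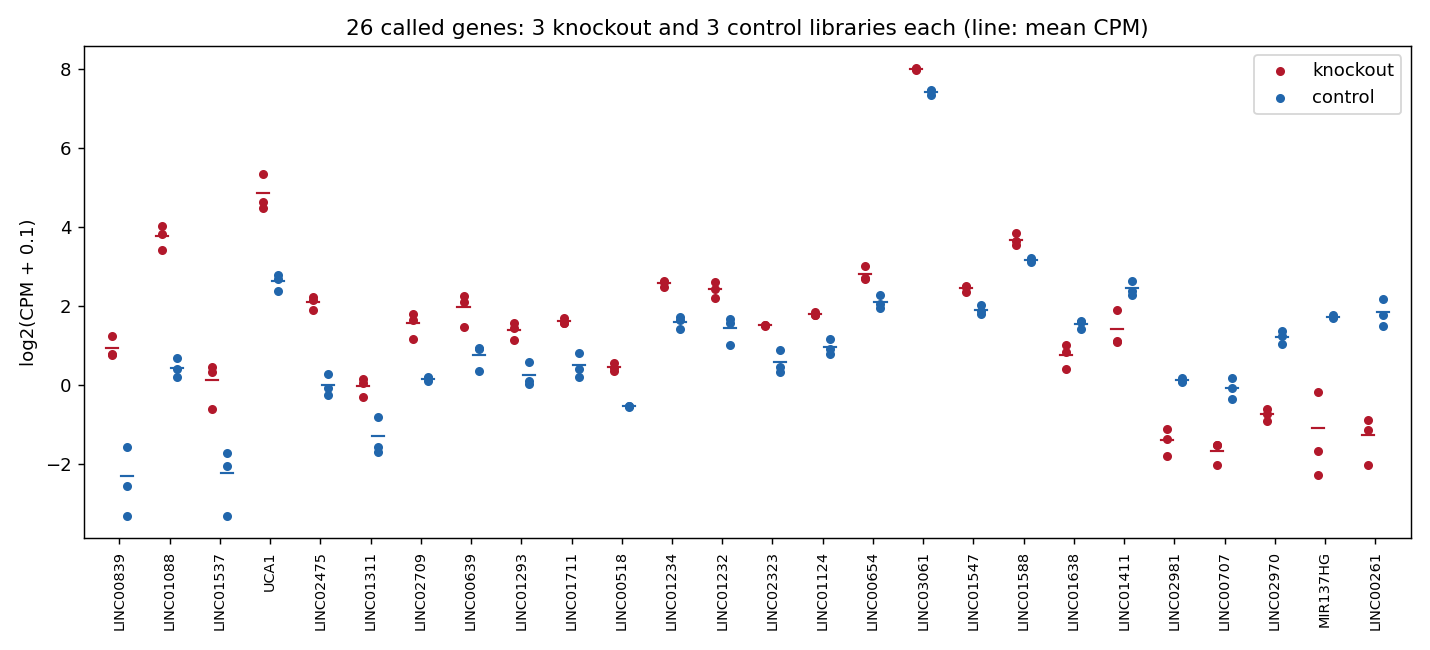
The 26 called genes, ordered by fold change, with the log2 of CPM plus 0.1 in each of the 3 knockout libraries (red, left) and 3 control libraries (blue, right), and a line at the group's mean CPM. The groups do not overlap for any of these 26 genes, which were called from the same libraries, so this is largely fixed by the choice. Over all tested genes 33.5% did not overlap. The distance is widest for LINC00839, LINC01088 and LINC01537 among the higher genes and for LINC00261 and MIR137HG among the lower genes. LINC00839, LINC01537 and LINC00261 reached the level of the selection only through the group in which they are high. MIR137HG was named for its difference.

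The other 13 rises were between 0.52 and 1.5 on the log2 scale. LINC01234 on chromosome 12 was at 5.51, 6.04 and 6.13 CPM in knockout libraries and at 3.21, 2.60 and 3.02 CPM in control libraries (1.00 ± 0.16 SE, adjusted p = 0.00495). LINC02709, 1779 bases from SWAP70 on chromosome 11, was at 3.05, 2.16 and 3.35 CPM in knockout libraries and at 1.05, 0.982 and 1.03 CPM in control libraries (1.48 ± 0.25 SE, adjusted p = 0.00659). Both were called in each alternative fit. LINC00518, which lies 9596 bases from the transcription factor gene TFAP2A on chromosome 6 and is one of the genes of a skin test for melanoma, rose by 1.10 ± 0.28 SE (adjusted p = 0.0346, and up to 0.122 in the alternatives). LINC01124 lies 784 bases from SP5, a transcription factor gene of the SP family, and rose by 0.87 ± 0.20 SE while SP5 was not called (0.15, adjusted p = 0.704).

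The remaining rises were LINC01311 (1.5, which entered through the knockout mean only), LINC00639 (1.26), LINC01293 (1.21), LINC01711 (1.18), LINC01232 (1.00), LINC02323 (0.98), LINC00654 (0.72), LINC01547 (0.56) and LINC01588 (0.52). These 9 and LINC00518, LINC01124 and LINC01537 all lost the call without knockout replicate 3. Without control replicate 2 all of these but LINC00654 lost it, and without control replicate 3 all but LINC01293 and LINC01711, and the highest adjusted p was 0.172, for LINC01311. LINC00518, LINC01311, LINC01547, LINC01588 and LINC02323 also lost it with the median of their chromosomal neighbours subtracted, and those medians were between 0.06 and 0.18. LINC00654 is the reverse case. It was at 7.94, 6.33 and 6.45 CPM in knockout libraries and at 3.75, 4.77 and 4.05 CPM in control libraries (0.72 ± 0.16 SE, adjusted p = 0.0209), while the 10 tested genes on each side of it on chromosome 20 had a median of -0.41. GPCPD1, its nearest tested coding gene at 39791 bases, was lower in knockout cells (-0.50 ± 0.10 SE, adjusted p = 0.0147), and it was not called without control replicate 2, control replicate 3 or knockout replicate 3.

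LINC00261 was low in knockout cells, as was the coding gene beside it. It reached the level of the selection through the control mean only, so its own difference is a description. LINC00261 (chromosome 20, 22547671 to 22578642, minus strand) lies 2363 bases from FOXA2, a pioneer transcription factor of endoderm. It was at 0.436, 0.144 and 0.357 CPM in knockout libraries and at 4.46, 2.74 and 3.33 CPM in control libraries. All control libraries were above all knockout libraries by a wide margin. The log2 fold change was -3.46 ± 0.37 SE. FOXA2 was at 3.74, 2.16 and 1.93 CPM in knockout libraries and at 16.5, 13.5 and 12.5 CPM in control libraries (-2.43 ± 0.24 SE, adjusted p = 0.000515). The 10 tested genes on each side of LINC00261 had a median of -0.09, and FOXA2 was still called with the neighbour median subtracted. GENCODE 29 also lists AL121722.1 on the same strand, which covers 86.1% of the exonic bases of LINC00261, so the assignment of reads between them is uncertain.

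MIR137HG, the host gene of the microRNA miR-137, was low in knockout cells. It lies on chromosome 1 (97933474 to 98049863, minus strand) and was at 0.779, 0.216 and 0.107 CPM in knockout libraries and at 3.34, 3.12 and 3.21 CPM in control libraries, a log2 fold change of -3.07 ± 0.48 SE. The control libraries were nearly equal, and the knockout libraries were spread from 0.107 to 0.779 CPM. Its span overlaps that of DPYD, which encodes the enzyme that degrades pyrimidines, and DPYD was lower too (-0.68, adjusted p = 0.0166), and the 10 tested genes on each side had a median of -0.28. Part of its exonic sequence, 9.8%, is shared on the same strand with DPYD and the microRNA genes. The mature microRNAs were not measured in these libraries. The 3p arm of miR-137, encoded inside this host gene, is shown with the 5p arms of miR-30a and miR-30c encoded inside LINC00472, since both hosts are described here. Capitals mark the seed, bases 2 to 8, from RefSeq on GRCh38.p14.
hsa-miR-137-3p: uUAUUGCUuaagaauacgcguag
hsa-miR-30a-5p: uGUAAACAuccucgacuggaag
hsa-miR-30c-5p: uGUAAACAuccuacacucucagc

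The miR-30a and miR-30c arms share the seed GUAAACA, and that of miR-137 is UAUUGCU.

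The other 5 lower genes were of low level, and LINC02970, LINC00707 and LINC02981 reached the level of the selection through the control mean only. LINC02970 on chromosome 20 (62596732 to 62603115, minus strand) was at 0.561, 0.503 and 0.428 CPM in knockout libraries and at 2.50, 1.96 and 2.26 CPM in control libraries (-2.16 ± 0.27 SE). LINC01411 was at 3.64, 2.05 and 2.03 CPM in knockout libraries and at 4.73, 6.17 and 5.16 CPM in control libraries (-1.05 ± 0.25 SE, adjusted p = 0.0254). LINC00707 (-1.95 ± 0.40 SE), LINC02981 (-1.83 ± 0.36 SE) and LINC01638 (-0.82 ± 0.23 SE, adjusted p = 0.0497) complete the list. LINC01411, LINC00707 and LINC02981 each lost the call without control replicate 2, control replicate 3 or knockout replicate 3, LINC01411 also without knockout replicate 2, with adjusted p values of up to 0.117, and LINC01638 lost it in 9 of its 16 alternative fits (up to 0.167). LINC01929 had 0.374, 0 and 0 CPM in knockout libraries and 1.69, 0.561 and 0.714 CPM in control libraries (-2.85), and was not called (adjusted p = 0.0685), its fitted size depending on counts near 0.

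**Figure D3:**
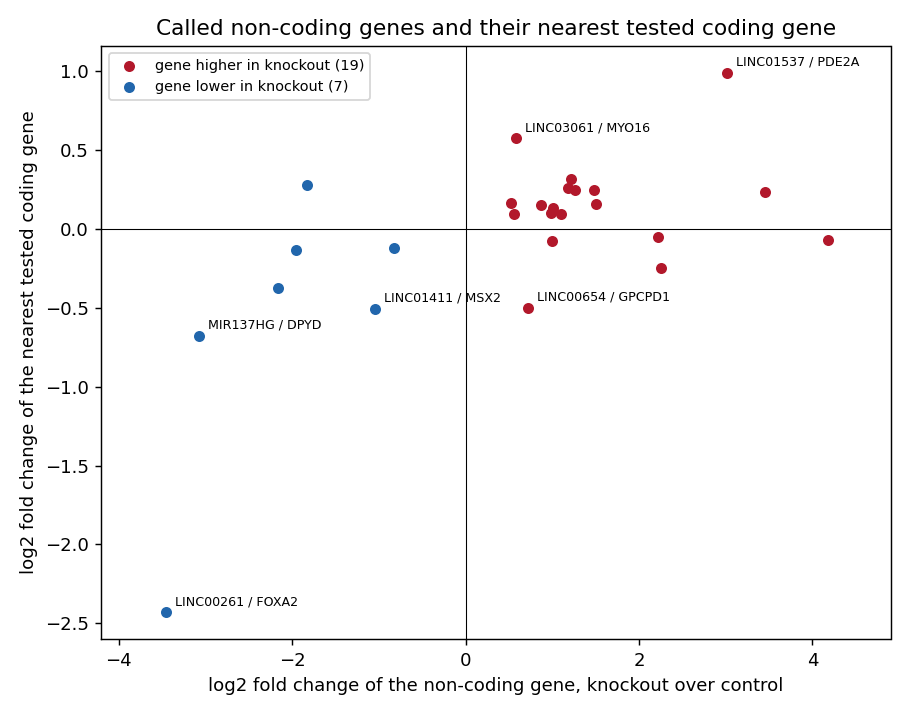
For each of the 26 called non-coding genes the horizontal axis gives its own log2 fold change, knockout over control, and the vertical axis that of the nearest tested coding gene; red points are genes higher and blue points genes lower in knockout cells. LINC00261 with FOXA2 (-2.43) stands apart at the lower left, MIR137HG with DPYD (-0.68) lies nearer to 0, and LINC00654 with GPCPD1 (-0.50) has the opposite directions.

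Position was compared between the called genes and the rest. GENCODE 29 gave a position to 185 of the 186 genes, on 23 chromosomes, and 155 of them are typed there as lincRNA. Their median exonic length was 2823 bases in a median of 4 merged exons, and the median distance to the nearest tested coding gene was 27781 bases, with 13 overlapping its span and 49 more than 100 kb away. For the nearest tested coding genes of the 19 higher genes, 0 were called higher, 2 lower and 17 not at all. The 17 ran from -0.08 for TM9SF2, nearest to LINC01232, to 0.99 for PDE2A, nearest to LINC01537 (edgeR adjusted p = 0.560 and 0.0685). A gene not called is not shown to be unchanged. For the 7 lower genes 2 were called lower, FOXA2 and DPYD, and 5 not at all. These 2 lie nearest to LINC00261, which entered through the control mean only, and MIR137HG, which was named for its difference. Over all tested genes 5.88% were called higher and 6.22% lower. Among the 159 genes with a position that were not called, the nearest coding gene was not called for 133. The 19 higher genes lay on 12 chromosomes and the 7 lower genes on 6. Chromosome 20 held 2 higher and 2 lower of its 6, and both lower ones entered through the control mean only. Chromosome 14 held 3 higher of its 8, and none of the 22 on chromosome 1 was higher. These chromosomes were picked after their counts were seen. Over all tested genes 12.1% were called, and shares by chromosome are not given.

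Among the highest LINC genes most did not pass the test. LINC02693 was at 38.8, 48.9 and 41.4 CPM in knockout libraries and at 46.2, 47.9 and 48.7 CPM in control libraries (-0.15 ± 0.09 SE, adjusted p = 0.354). LINC01224 was at 34.0, 26.2 and 29.2 CPM in knockout libraries and at 36.1, 34.4 and 34.0 CPM in control libraries (-0.23 ± 0.10 SE, adjusted p = 0.189). LINC02009 was at 37.8, 28.8 and 38.8 CPM in knockout libraries and at 22.0, 29.5 and 31.5 CPM in control libraries (0.35 ± 0.15 SE, adjusted p = 0.175). The groups overlapped for LINC02693 and LINC02009, and the highest knockout and the lowest control library of LINC01224 were both at 34.0 CPM. LINC00205 had a log2 fold change of -0.12 (adjusted p = 0.650) with 46.3, 31.95 and 32.3 CPM in knockout libraries and 45.4, 36.4 and 38.6 CPM in control libraries, its replicate 1 being the highest in both groups. Without the replicate 1 libraries LINC00205 was lower in knockout cells (-0.22, edgeR adjusted p = 0.0411), in a fit that called 2267 of all tested genes lower. POFUT2, 152 bases from LINC00205, was higher in knockout cells with all libraries (0.34, adjusted p = 0.015). LINC00511 was lower in every knockout library, at 13.8, 17.0 and 15.5 CPM against 18.8, 21.5 and 17.5 CPM in control libraries, and did not pass (-0.32, adjusted p = 0.104). In all, the groups did not overlap for 39 genes that were higher and 23 that were lower in knockout cells, 33.3% of the 186, where 33.5% of all tested genes did not overlap.

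NEAT1 in both groups and MALAT1 in knockout cells varied more between the libraries of a group than between the groups. NEAT1 (chromosome 11, 65422774 to 65445540, plus strand) was at 82.4, 18.5 and 27.0 CPM in knockout libraries and at 63.0, 31.5 and 34.2 CPM in control libraries (log2 fold change -0.01 ± 0.48 SE, adjusted p = 0.995). Replicate 1 was the highest library of each group, and the groups overlapped. MALAT1 (chromosome 11, 65497688 to 65506516, plus strand) was at 63.2, 29.5 and 33.8 CPM in knockout libraries and at 40.6, 33.1 and 33.6 CPM in control libraries (0.24 ± 0.24 SE, adjusted p = 0.569), again with replicate 1 highest in both groups. Without the 2 replicate 1 libraries, an alternative chosen after the data were seen, NEAT1 was lower in knockout cells (-0.53, adjusted p = 0.00459, 2 libraries against 2) and MALAT1 was at -0.08 (adjusted p = 0.555). The call of NEAT1 is 1 of many, since 2267 of all tested genes were called lower in that fit, against 883 with all libraries.

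LINC00472, whose span holds the miR-30a and miR-30c hairpins on chromosome 6, had the same pattern, with 46.0, 22.8 and 25.1 CPM in knockout libraries and 45.8, 26.5 and 27.2 CPM in control libraries (-0.08 ± 0.28 SE, adjusted p = 0.881). LINC02595 was at 7.97, 5.68 and 5.14 CPM in knockout libraries and at 8.07, 5.61 and 5.28 CPM in control libraries (-0.01, adjusted p = 0.977). LINC03033 was at 6.79, 3.63 and 3.96 CPM in knockout libraries and at 10.5, 7.09 and 6.94 CPM in control libraries (-0.77, adjusted p = 0.0855), with every knockout library below every control library. Without the replicate 1 libraries LINC03033 was called lower in knockout cells (-0.89, edgeR adjusted p = 0.000834), while LINC00472 (-0.17, adjusted p = 0.180) and LINC02595 (-0.01, adjusted p = 0.966) were not called. That fit called 2267 of all tested genes lower. Replicate 1 exceeded 1.3 times the mean of the other libraries in both groups at 3 of the 39 LINC genes of at least 5 CPM (7.69%), against 1.14% of the 10493 tested genes of that level, and at 19 of the 143 under 5 CPM (13.3%), against 12.4% of the 3706 tested genes of that level. This cut was chosen after the values were seen.

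**Figure D4:**
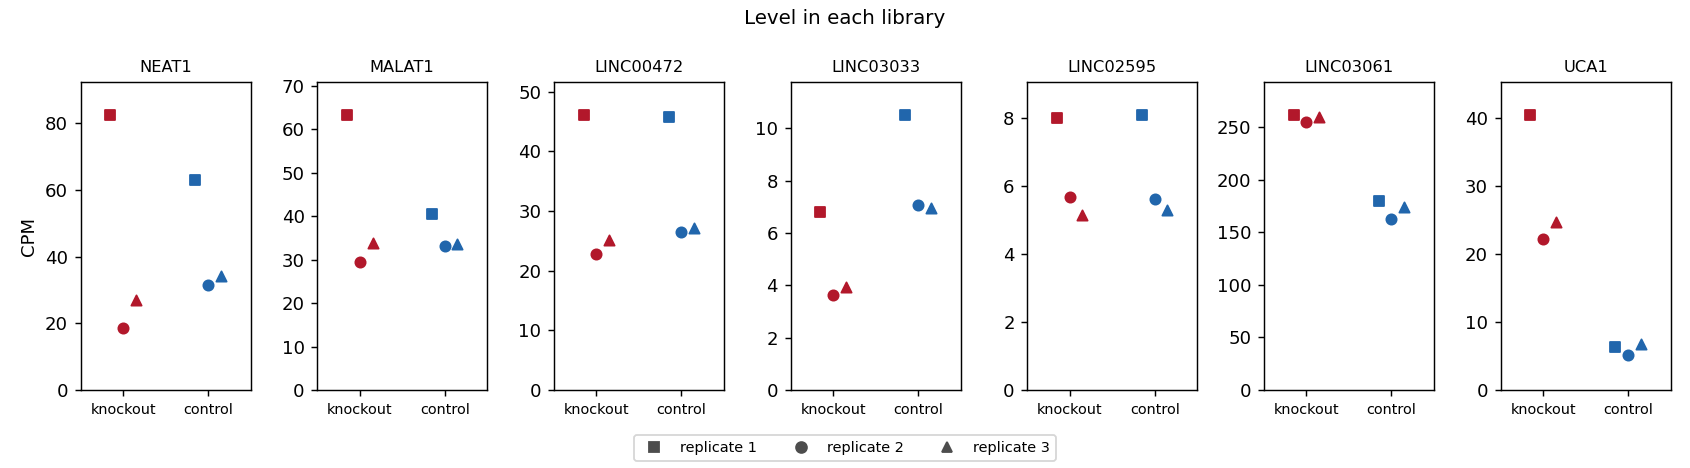
CPM in each library of 7 genes, knockout left in red and control right in blue, with squares for replicate 1, circles for replicate 2 and triangles for replicate 3; each vertical axis starts at 0. The squares lie above the other libraries in both groups for NEAT1, MALAT1, LINC00472, LINC03033 and LINC02595, and by a small margin for LINC03061. The groups are separate for LINC03061, UCA1 and LINC03033.

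Genes of the proteins that work with NEAT1 and MALAT1 are given as lists, each of 20 genes. The libraries of the groups did not overlap for 35.0% of the NEAT1 list and 30.0% of the MALAT1 list, near the 33.5% of all tested genes. Of 20 paraspeckle proteins and partners of NEAT1, 0 rose, 1 fell and 19 did not pass, which is 5.0% called, against 12.1% of all tested genes. DESeq2 and limma-voom also called 0 higher and 1 lower, the median log2 fold change was -0.08, and 1 was higher and 4 were lower at an unadjusted edgeR p under 0.05. Without the replicate 1 libraries 2 were called higher and 4 lower, in a fit that called 2045 of all tested genes higher and 2267 lower. The one that fell was SMARCA4, the chromatin remodelling ATPase, at 231 ± 13.1 CPM in knockout cells and 300.0 ± 18.2 CPM in control cells (SD, n = 3 each; -0.38 ± 0.07 SE, adjusted p = 0.00906), and it was not called with the neighbour median subtracted or without knockout replicate 3. Of 20 nuclear speckle proteins and partners of MALAT1 0 passed in edgeR, in DESeq2 and in limma-voom (median -0.04), and 1 was higher and 4 were lower at an unadjusted edgeR p under 0.05, beside the 12.1% of all tested genes called. With the neighbour median subtracted 4 were called lower, and without the replicate 1 libraries 2 were called higher and 3 lower. The smallest p values belonged to the splicing regulators TRA2B (-0.19, adjusted p = 0.0811) and SRSF1 (-0.23, adjusted p = 0.109), and without the replicate 1 libraries both were called lower (adjusted p = 0.0362 and 0.0179).

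Of 37 genes of nuclear RNA decay, the exosome, its adaptor complexes and Integrator, 3 rose and 2 fell (median -0.05), or 13.5%, near the 12.1% of all tested genes. ZC3H18, which links the cap-binding complex to RNA decay, was at 109 ± 3.77 CPM in knockout cells and 78.8 ± 4.59 CPM in control cells (SD, n = 3 each; 0.47 ± 0.07 SE, adjusted p = 0.0034). The Integrator subunit INTS1 rose by 0.27 ± 0.06 SE, while INTS13 (-0.38 ± 0.08 SE) and INTS7 (-0.37 ± 0.08 SE) were lower. ZC3H18 lost the call with the neighbour median subtracted (adjusted p = 0.171), and the 3 Integrator genes lost it without control replicate 2, control replicate 3 or knockout replicate 3. With 1 library left out between 1 and 7 of the 37 were called higher and between 0 and 5 lower, the most in each case without knockout replicate 1.

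Other classes of non-coding RNA gene are set beside the 12.1% of all tested genes that were called. That share was 7.77% under 5 CPM and 13.6% at 5 CPM or more, and these classes were not matched for level. Of 404 tested antisense genes 12 were higher and 6 lower (4.46%), and of 199 tested divergent transcript genes 7 were higher and 1 lower (4.02%), with medians of 0.14 and 0.20. Whether reads were counted by strand is not stated, so reads of an antisense gene and its partner may not be told apart. KAZN-AS1 was at 0.262 ± 0.0891 CPM in knockout cells and 3.33 ± 0.583 CPM in control cells (SD, n = 3 each; -3.65 ± 0.32 SE, adjusted p = 0.000304). HHIP-AS1, opposite the hedgehog-binding HHIP, was lower too (-2.25 ± 0.25 SE), and RUNDC3A-AS1 (1.91) and LBX2-AS1 (1.11) were higher. Among divergent transcripts, INSIG1-DT rose by 1.07, ARNT2-DT by 0.87, DDX19A-DT by 1.89 and GMDS-DT by 0.58. These 4 lost the call without control replicate 3 or knockout replicate 3, while the 4 antisense genes named kept it in each alternative fit. With 1 library left out the antisense calls ran from 2 to 23 higher and from 3 to 8 lower, and the divergent calls from 0 to 13 higher and from 0 to 6 lower, with the highest counts of rises without knockout replicate 1.

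Of 25 tested small nucleolar RNA host genes 1 rose and 0 fell (2 were lower at an unadjusted edgeR p under 0.05, and DESeq2 called 1 lower), SNHG18 at 13.7 ± 1.08 CPM in knockout cells and 9.59 ± 0.996 CPM in control cells (SD, n = 3 each; 0.51 ± 0.12 SE, adjusted p = 0.0245). It lost the call without control replicate 2, control replicate 3 or knockout replicate 3. Of 24 tested microRNA host genes 0 rose, with 0 higher at an unadjusted edgeR p under 0.05 as well, and 3 fell (12.5%): MIR4435-2HG (-0.46, adjusted p = 0.0249), MIR100HG, host of miR-100 (-0.84, adjusted p = 0.0383), and MIR600HG (-1.14, adjusted p = 0.044). None of these 3 was called without control replicate 1, 2 or 3, knockout replicate 2 or 3, or with the neighbour median subtracted. Of 22 tested long non-coding RNAs known by name 1 rose and 2 fell (13.6%). LUCAT1, a transcript linked to stress responses, was at 23.1, 22.7 and 21.4 CPM in knockout libraries and at 13.3, 9.72 and 10.7 CPM in control libraries (0.99 ± 0.12 SE, adjusted p = 0.00154). DLEU1 (-0.72, adjusted p = 0.0266) and DLEU2 (-0.57, adjusted p = 0.0402), neighbours on chromosome 13, were lower, and neither was called with the neighbour median subtracted or without control replicate 1, 2 or 3 or knockout replicate 3.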

How the data were processed

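Poly-A selected, strand-specific RNA libraries of MDA-MB-231 cells were sequenced, 3 per group, each from another passage, per the labels' protocols. The authors deposited a table of raw counts per gene symbol and a table of log2 CPM values of 15066 genes. FastQC, STAR version 2 and GRCh38 are named in the submitters' processing notes. Which program counted the reads, with which strand setting and annotation, was not given in the sources used here. Library totals of 25419877 to 31596286 counts set the precision.

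The 186 genes and all lists were chosen with earlier results of these data known. The whole table of deposited counts was tested with edgeR 4.0.16 in R 4.3.3 (TMM scaling, filterByExpr, quasi-likelihood F test, Benjamini-Hochberg adjustment over 14199 genes, threshold 0.05), and it was tested on simulated data first. RNASEH2A had an exact permutation test. Alternatives were DESeq2 1.42.0, limma 3.58.1 (voom on the counts, and on the deposited log2 values), other scalings and filters, a replicate block, subtraction of the median change of the 10 tested genes on each side, each library left out, and other thresholds of the selection.

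Genes named are the 4 taken by name, up to 15 called LINC genes in each direction by p, the 6 of highest mean CPM, those nearest to the threshold, up to 4 called genes per list (or the 2 of smallest p), the nearest tested coding genes, and the RNase H2 subunits. The remaining called genes and LINC01929, LINC00511, LINC02595, LINC02984, LINC03033 and POFUT2 were named after their values were seen. Symbols were matched through Ensembl IDs to GENCODE 29 (99.3% with a position), and start regions and microRNAs are from RefSeq.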

Additional observations from a re-analysis of the deposited data

How the results depend on the processing

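No direction of the 26 called genes changed in the alternatives that tested them. Counting UCA1 and MIR137HG, which were named for their difference, the 19 higher genes became 7 to 25, and the 7 lower genes 3 to 18, when 1 library was left out. Over all tested genes 835 calls higher became 261 to 1629, and 883 calls lower 263 to 1801. With the replicate block 13 of the 186 genes were lower, and over all tested genes 1506 were higher and 1593 lower. The 26 calls were kept under that block, and 2 nuclear speckle genes were called lower. The correlations of same-numbered libraries' deviations from the group means were 0.316, 0.139 and 0.0855. Those of replicate 1 of either group with replicates 2 and 3 of the other group were between -0.243 and -0.154. Control replicate 3 correlated best with knockout replicate 2 (0.141). Deviations from the mean of 3 libraries are not independent, so these values cannot decide whether the numbers pair the libraries by origin. Without the replicate 1 library of both groups, chosen after the data were seen, 20 were lower, and over all tested genes 2045 were higher and 2267 lower. With the neighbour median subtracted 547 of all tested genes were higher and 503 lower. With at least 0.5 CPM required of LINC genes in both group means 3 were lower, 2 LINC genes and MIR137HG, which is kept by name and is under that level in knockout cells. The cause of these shifts was not tested, except that the last alternative removes genes by construction. Of the counts per gene list under an alternative, 89 moved by more than 1.5 times and 167 did not. Depth limits the low genes: 51 of 182 LINC genes were under 1 CPM, and a level of 0 cannot be told from 0.0949 to 0.118 CPM, or from 0.190 to 0.236 CPM if both reads of a pair were counted.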
